A study of Mus musculus with 6 samples.

Results

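Cholesterol synthesis was followed through 7 genes, Srebf2, Insig1, Hmgcs1, Idi1, Fdft1, Sqle and Lss, chosen by name with earlier results of these data known. They were 7 of 21717 genes detected in at least 1 tumor, and all 7 were found by their Ensembl identifiers in the GRCm38 annotation. The samples were epithelial tumor cells, sorted as CD45-EPCAM+, from 6 breast tumors of MMTV-PyMT mice on the FVB/N background, a model in which the MMTV promoter drives the polyoma middle T antigen in mammary epithelium. All 6 tumors came from mice given B20-4.1.1, an antibody against VEGF-A, at 5 mg/kg intraperitoneally, 2 times per week for 6 weeks, beginning at an age of 7 weeks. There was therefore 1 group and no untreated sample in the values below, and the tumors, numbered 1 to 6, are its replicates. The study separated tumors that became hypoxic under treatment from those that did not, but the class of each tumor is not given in the labels, so the tumors were not divided here.

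Cells make cholesterol from acetyl-CoA in a long chain of enzymes, first through mevalonate to farnesyl pyrophosphate and then, through squalene and lanosterol, to cholesterol itself. The chain is switched on by SREBP2, a transcription factor held in the endoplasmic reticulum membrane with its escort SCAP while sterols are plentiful. When sterols fall, the complex moves to the Golgi, where proteases free the active factor, which then binds sterol regulatory elements in the promoters of the synthesis enzymes and of its own gene. Several steps of the sterol branch, including those of squalene epoxidase and of the lanosterol demethylase Cyp51, consume molecular oxygen, which ties the pathway to oxygen supply.

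The promoters are shown first because SREBP2 acts through them. RefSeq promoters on GRCm38.p6, from 250 bases before to 50 bases after the start site, were at hand for 5 of the 7 genes, namely Srebf2, Insig1, Hmgcs1, Idi1 and Lss. The 4 motifs searched, on both strands, were TCACCCCA (called here the sterol regulatory element core), CACGTG (an E-box), CCAAT (the box of NF-Y, a cofactor of SREBP2) and GGGCGG (a GC box, the letters bound by Sp1). No motif overlapped another in the 3 sequences printed. Capitals mark these motifs, which on the opposite strand read ATTGG for the NF-Y box and CCGCCC for the GC box. Shown are the 250 bases before the start site, on the plus strand, of both genes with the sterol regulatory element core, Hmgcs1 at chr13:119690101-119690350 and Srebf2 at chr15:82147019-82147268, and of the gene with an E-box, Insig1 at chr5:28071162-28071411.
Hmgcs1: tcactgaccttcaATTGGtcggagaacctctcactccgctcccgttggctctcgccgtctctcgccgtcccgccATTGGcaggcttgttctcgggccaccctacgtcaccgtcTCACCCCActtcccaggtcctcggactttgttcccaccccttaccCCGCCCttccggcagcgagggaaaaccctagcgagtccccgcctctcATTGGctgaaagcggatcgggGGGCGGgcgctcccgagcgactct
Srebf2: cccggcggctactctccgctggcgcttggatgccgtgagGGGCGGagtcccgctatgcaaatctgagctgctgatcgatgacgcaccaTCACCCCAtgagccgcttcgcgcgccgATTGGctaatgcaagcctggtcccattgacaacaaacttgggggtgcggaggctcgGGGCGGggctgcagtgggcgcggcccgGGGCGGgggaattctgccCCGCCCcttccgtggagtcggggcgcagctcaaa
Insig1: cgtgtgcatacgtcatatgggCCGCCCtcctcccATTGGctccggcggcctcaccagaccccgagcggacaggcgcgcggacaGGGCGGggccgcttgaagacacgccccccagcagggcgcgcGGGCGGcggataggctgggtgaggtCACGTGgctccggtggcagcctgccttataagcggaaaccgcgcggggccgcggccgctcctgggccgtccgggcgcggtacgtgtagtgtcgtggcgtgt

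The core lay 137 bases before the start in Hmgcs1 and 162 bases before it in Srebf2, on the strand of the gene in both. Over all 32851 promoters of this length, 1.56% held the core. It was not among the letters of the Insig1, Idi1 and Lss windows, nor in those of 24 other genes of the pathway that had a promoter entry. The E-box of Insig1 lay 101 bases before its start, and 7.15% of all promoters held one. NF-Y boxes numbered 4 in Hmgcs1, 2 in Idi1 and 1 each in Insig1, Lss and Srebf2, against 37.4% of all promoters with at least 1. GC boxes numbered 5 in Srebf2, 3 in Hmgcs1, 3 in Insig1, 2 in Lss and 1 in Idi1, against 35.7% of all promoters with at least 1. A match here describes the letters only.

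Expression was measured with a 3′ RNA-seq method (QuantSeq FWD), in which reads come from near the polyadenylated end, and the authors deposited raw counts per gene. Counts on genes ranged from 2509482 in tumor 2 to 5893246 in tumor 1, and levels are given as CPM, counts per 1000000 counts on genes. Intervals are exact Poisson intervals at 95% and cover counting error only, as do the floors of 3 counts, which lay between 0.509 and 1.2 CPM. The luminal marker Epcam was present in every library, at 611 to 972 CPM. The immune marker Ptprc had at most 18 counts, but Lyz2, another gene of the immune list, ranged from 3.19 to 148 CPM, with up to 610 counts. The library of tumor 1 stood apart. Across genes, its median correlation with the other libraries was 0.788, against 0.905 to 0.939 for the others, it was the highest of the tumors for 38.2% of the 8873 genes averaging 10 CPM or more, and its nuclear RNA Malat1 was at 130 CPM, the lowest of the tumors. Values without tumor 1 are given where leaving it out moved a result.

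Srebf2, which encodes SREBP2 itself, had an almost constant level in 5 of the tumors and a higher one in the other. Its level (ENSMUSG00000022463, chromosome 15, 82147181 to 82205379, plus strand) was 89.9, 50.6, 50, 50, 48.7 and 46.9 CPM in tumors 1 to 6. The counting interval of tumor 1, 82.4 to 98 CPM, did not overlap that of the next tumor, while the neighbours among the other 5 all overlapped. The gap from tumor 1 to tumor 2 took up 0.913 of the whole range, above Dixon's 95% limit for 6 values. In the same library, 13.1% of the 8873 genes were also highest in tumor 1 with a gap past that limit, and 18.7% had a ratio to the median of the other tumors at least as large as the log2 ratio of 0.84 of Srebf2. The part of the library in this gap was not tested. In sorted cells measured in bulk, as for every level here, more cells with a transcript and more transcript per cell cannot be told apart.

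Insig1 encodes the protein that holds SCAP and SREBP2 in the endoplasmic reticulum, and its transcription is itself raised by SREBP2. Its level (ENSMUSG00000045294, chromosome 5, 28071363 to 28078662, plus strand) was 3.9, 1.99, 4.61, 4.04, 4.59 and 1.17 CPM in tumors 1 to 6. Tumors 2 and 6 were the low ones, but they rest on 5 and 6 counts, and no neighbours in the order of the tumors had separate intervals.

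Hmgcs1, the cytosolic HMG-CoA synthase that opens the committed part of the mevalonate branch, was high in tumors 4 and 5 and low in tumor 2. Its level (ENSMUSG00000093930, chromosome 13, 119690379 to 119708260, plus strand) was 34.1, 22.3, 36.6, 61.5, 49.1 and 34.6 CPM in tumors 1 to 6. The interval of tumor 5 lay above that of tumor 3, and that of tumor 1 above that of tumor 2, so that tumors 4 and 5, tumors 3, 6 and 1, and tumor 2 formed separate steps in counting error. The highest level was 2.75 times the lowest, against a median of 2.3 over the 8873 genes.

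Idi1, the isomerase that turns isopentenyl pyrophosphate into its reactive isomer, was at or near the floor of detection. It had 7, 1, 1, 5, 6 and 3 counts in tumors 1 to 6, or 23 in all (ENSMUSG00000058258, chromosome 13, 8885501 to 8892451, plus strand). These are levels of 0.242 to 1.2 CPM, with 3 tumors at or under the floor, and differences between tumors were not detectable at this depth.

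Fdft1 encodes squalene synthase, the first enzyme given over to sterols alone. Its level (ENSMUSG00000021273, chromosome 14, 63145150 to 63179578, minus strand) was 11, 3.19, 5.09, 4.25, 7.79 and 2.73 CPM in tumors 1 to 6. Tumor 1 was highest and tumor 5 next, and no neighbours in the order had separate intervals. Its log2 ratio of tumor 1 to the median of the others was 1.20, reached by 7.64% of genes. The annotation places 774 exonic bases of Fdft1 opposite exons of Ctsb, the protease cathepsin B, which was at 586 CPM in tumor 1 and at 270 to 405 CPM in the others. The library kit keeps the strand, but the strand setting of the counting is not given in the sources used here, so the counts of Fdft1 are uncertain, and the part of Ctsb in them was not tested. Shorter stretches of Hmgcs1 (557 exonic bases), Lss (381) and Idi1 (323) also lie opposite annotated genes, of which the partner of Lss, 4930483K19Rik, had 0 counts and the others were not analysed here.

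Sqle encodes squalene epoxidase, an oxygen-consuming and rate-limiting enzyme of the sterol branch. Its level (ENSMUSG00000022351, chromosome 15, 59315077 to 59331192, plus strand) was 50.9, 34.7, 50, 65.1, 67.9 and 36.1 CPM in tumors 1 to 6. Tumors 5 and 4 were high, tumors 1 and 3 intermediate and tumors 6 and 2 low, and the intervals separated these 3 steps. The highest level was 1.96 times the lowest.

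Lss encodes lanosterol synthase, which folds oxidosqualene into the first sterol. Its level (ENSMUSG00000033105, chromosome 10, 76531588 to 76557138, plus strand) was 17, 15.5, 26.4, 22.5, 18.2 and 19.9 CPM in tumors 1 to 6. It was the most even of the 6 members fitted, with a ratio of 1.7 between its highest and lowest tumor, no neighbours with separate intervals, and a biological coefficient of variation in edgeR of 0.286, at most which 13.6% of genes lay. The same measure was 0.299 for Sqle, 0.303 for Srebf2, 0.330 for Hmgcs1, 0.431 for Insig1 and 0.469 for Fdft1, against a median of 0.354 over all genes.

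**Figure D1:**
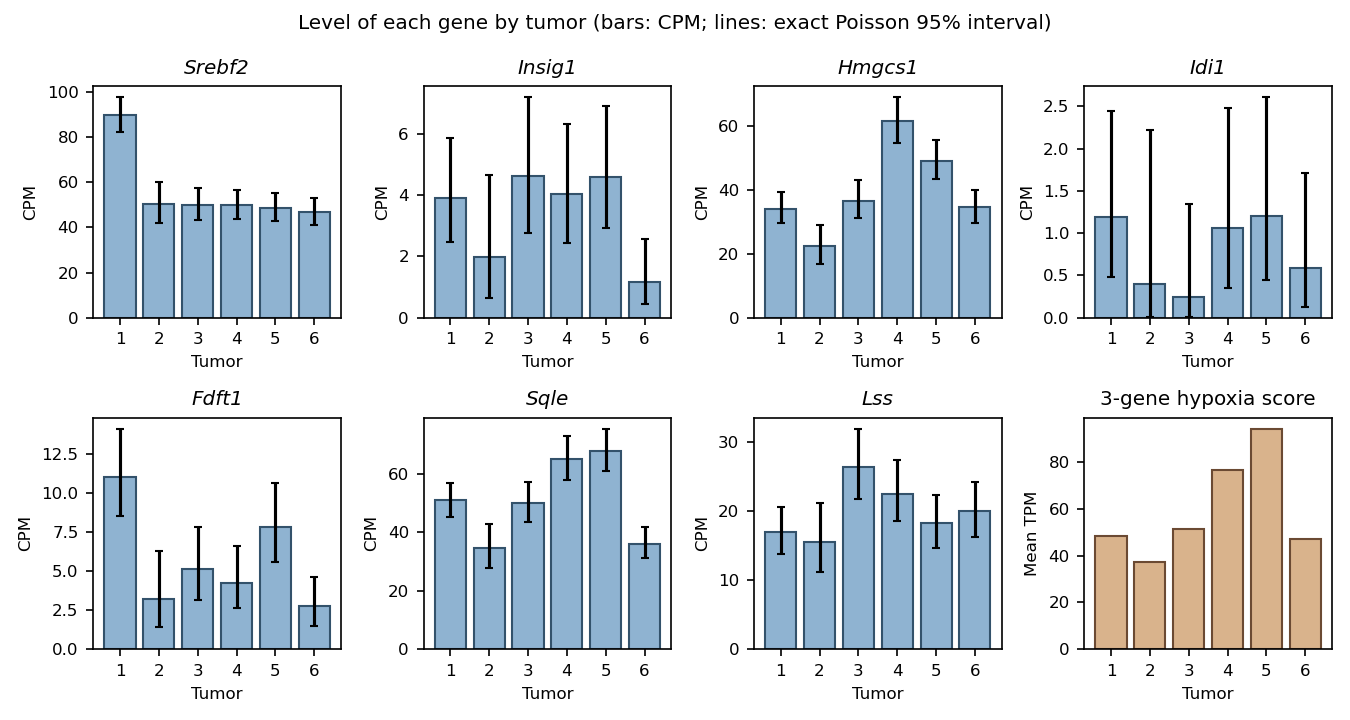
Level of each of the 7 genes in CPM (bars) in tumors 1 to 6, with exact Poisson 95% intervals (lines), each panel on its own scale from 0, and the 3-gene hypoxia score in mean TPM (last panel, no interval). Srebf2 stands out in tumor 1 at 89.9 CPM, Hmgcs1 and Sqle are highest in tumors 4 and 5, where the score is 76.6 and 94.4, and Idi1 rests on at most 7 counts.

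Whether the genes followed tumor hypoxia was asked with a continuous measure, the mean of Vegfa, Slc2a1 and Car9, a growth factor, a glucose transporter and a carbonic anhydrase induced by hypoxia, which the study computed as a 3-gene score in patients and in these sorted fractions. Recomputed here in TPM from the same libraries, the score was 48.5, 37.2, 51.4, 76.6, 94.4 and 47.3 in tumors 1 to 6. No gene passed. Of 12085 genes fitted with edgeR's quasi-likelihood test, 0 had an adjusted p under 0.05 (0% of genes, smallest adjusted p 0.445), while 510 had an unadjusted p under 0.05, and DESeq2 called 18, none of them a member. Positive slopes with an unadjusted p under 0.05 made up 2.5% of the genes.

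Hmgcs1 and Sqle had the clearest slopes among the members, but neither passed the adjustment. The slope, the log2 change per doubling of the score, was 0.85 ± 0.33 (SE, 6 tumors) for Hmgcs1, with an unadjusted p of 0.0274 and an adjusted p of 0.954 in edgeR. For Sqle it was 0.68 ± 0.29 (SE), with an unadjusted p of 0.0425 and the same adjusted p of 0.954 in edgeR. These 2 of the 6 members fitted had an unadjusted p under 0.05. Without tumor 1, the slope of Hmgcs1 was 0.83 ± 0.29 (edgeR adjusted p 0.478) and that of Sqle 0.72 ± 0.24 (edgeR adjusted p 0.457). With the prefix of the mouse identifier in the labels as a covariate (4 tumors and 2 tumors), the slopes were 0.71 ± 0.40 and 0.67 ± 0.37, with unadjusted edgeR p of 0.115 and 0.106. Within the 4 tumors of 1 prefix alone, fitted after the data were seen, the slopes were 0.64 ± 0.49 for Hmgcs1 and 0.65 ± 0.45 for Sqle, with unadjusted edgeR p of 0.23 and 0.19, while the 2 tumors of the other prefix leave no residual spread.

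The other members had slopes with an unadjusted edgeR p over 0.05. Insig1 had 0.75 ± 0.61, and 0.88 ± 0.59 without tumor 1. Fdft1 had 0.36 ± 0.64, a value that moved between 0.01 and 0.83 when single tumors were left out (0.83 ± 0.46 without tumor 1) and was -0.04 ± 0.83 within the 4 tumors of 1 prefix. Both genes had few counts. Lss had 0.07 ± 0.36, a value whose sign changed when tumor 2 was left out and which was 0.00 without tumor 1, and Srebf2 had -0.26 ± 0.37, or -0.09 without tumor 1. Idi1 did not pass the filter on low counts and was not fitted. Over the 6 members fitted, 5 slopes were positive and their median was 0.52, beside a median of -0.04 over all genes, of which 46.8% had a positive slope. Without tumor 1, 5 were positive and the median was 0.77, beside -0.01 over all genes. Because the members were chosen with earlier results of these data known, these medians are a description and not a test.

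Other measures moved with the score too. The summed level of 6 proliferation markers, Mki67, Top2a, Ccnb1, Cdk1, Pcna and Mcm2, was 263, 191, 283, 299, 421 and 194 CPM in tumors 1 to 6. This is the same order of tumors as that of the score, and their part in the slopes of Hmgcs1 and Sqle was not tested. Basal epithelial markers summed to 132 to 503 CPM over all 6 genes and were also highest in tumor 5. Tumor 2, the lowest for Hmgcs1, Sqle and Lss, was the shallowest library and had 41.4% of its reads on no gene, against 16.1 to 30.9% in the others. Immune markers summed to 15.5 to 219 CPM over 8 genes, with Cd79a at 0, and erythroid markers to 5.66 to 864 CPM over 5 genes, both highest in tumor 3, which was also the highest for Lss and Insig1. Their part in those levels was not tested. Endothelial markers summed to 1.59 to 4.12 CPM over 5 genes, with Emcn at 0, fibroblast markers to 14.6 to 24.2 CPM over 5 genes, and adipocyte markers to at most 2.67 CPM over 5 genes, with Lep at 0.

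**Figure D2:**
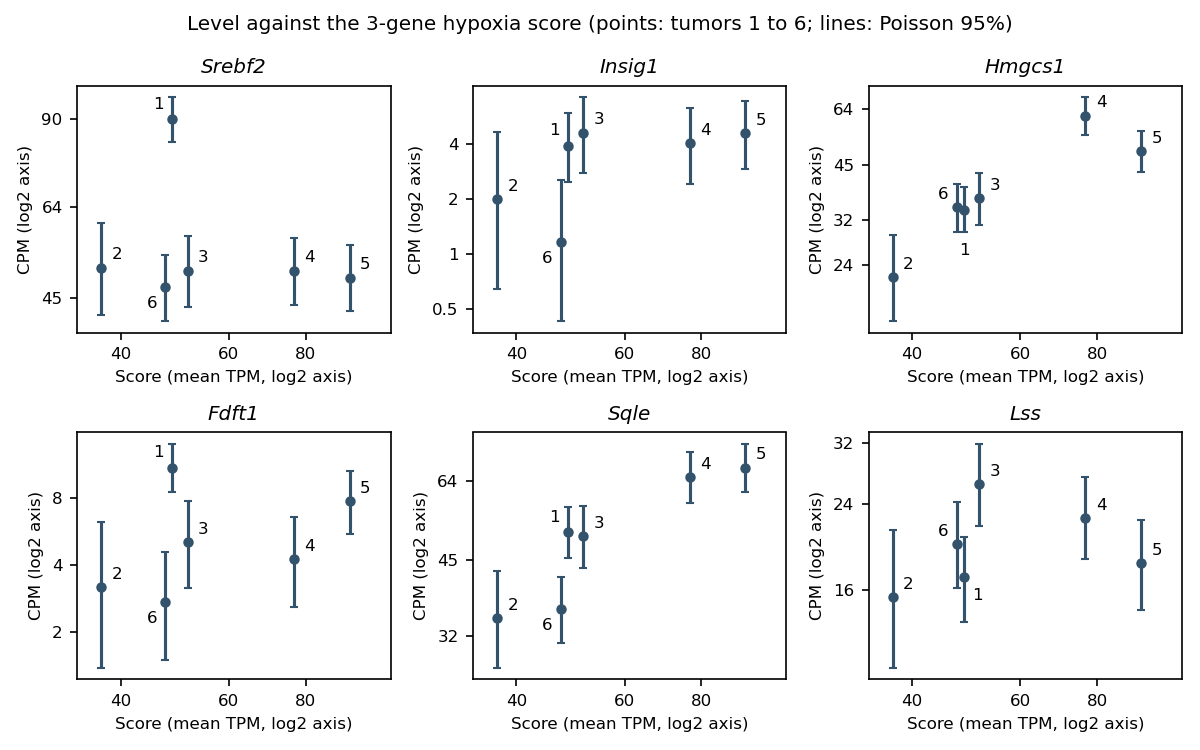
Level in CPM of the 6 members fitted (y axis, log2) against the hypoxia score in mean TPM (x axis, log2), 1 point per tumor with its number, and exact Poisson 95% intervals as lines. Hmgcs1 and Sqle rise from tumor 2 to tumors 4 and 5 (fitted slopes 0.85 and 0.68, neither past the adjusted threshold), whereas Srebf2 is flat apart from tumor 1.

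The members were then placed among the other genes of the pathway. In the mevalonate branch, 8 of 9 genes were fitted and 3 slopes were positive, with a median of -0.27 (4 positive and -0.07 without tumor 1). The highest was that of Hmgcs1. The lowest slopes over all 6 tumors were those of the phosphomevalonate kinase Pmvk, -1.0 ± 0.82, and of the farnesyl pyrophosphate synthase Fdps, -0.41 ± 0.38. Pmvk was at 189 CPM in tumor 1 and at 33.7 to 50 CPM elsewhere. Without tumor 1 its slope was -0.22 ± 0.26 and no longer the lowest, which was then that of Ggps1, -0.54 ± 0.32.

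In the sterol branch, all 13 genes were fitted and 10 slopes were positive, with a median of 0.13 (10 positive and 0.43 without tumor 1). The highest were those of Cyp51, 0.73 ± 0.42, and Sqle. Cyp51, the lanosterol demethylase, was at 46.2, 16.7, 26.7, 47.4, 38.1 and 21.9 CPM in tumors 1 to 6. Its slope over all 6 tumors had an unadjusted edgeR p of 0.11. Without tumor 1 the slope was 0.96 ± 0.29 (unadjusted edgeR p 0.00689, adjusted p 0.448). In that fit, positive slopes with an unadjusted p under 0.05 made up 4.23% of all genes. With the identifier prefix as a covariate, the slope of Cyp51 over all 6 tumors was 0.39 ± 0.46 (unadjusted edgeR p 0.425). Cyp51 was high in tumors 1, 4 and 5, of which tumor 1 had a low score. The lowest in this branch were Ebp, a sterol isomerase, with -0.20 ± 0.32, and Tm7sf2, a sterol reductase, with -0.08 ± 0.52.

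The genes that control SREBP2 showed little relation to the score, with 4 of 9 slopes positive and a median of -0.14 (4 positive and -0.07 without tumor 1). Insig1 and the protease gene Mbtps2, 0.15 ± 0.31, had the highest slopes, and Scap, the escort of SREBP2, with -0.40 ± 0.50, and Srebf2 the lowest. The slopes of the protease gene Mbtps1 and of Insig2, a relative of Insig1, were -0.16 ± 0.32 and 0.04 ± 0.41, or -0.10 ± 0.24 and 0.24 ± 0.27 without tumor 1. Scap was at 137 CPM in tumor 1 and at 46.5 to 69.4 CPM in the others, so that it shared the high tumor of Srebf2, and its slope without tumor 1 was -0.07 ± 0.25.

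Among uptake and transport genes, 10 of 11 were fitted, 6 slopes were positive and the median was 0.26 (6 positive and 0.38 without tumor 1). Stard4, a carrier that moves cholesterol between membranes, had the highest slope of all sterol genes examined, 1.19 ± 0.36 (unadjusted edgeR p 0.00896, adjusted p 0.954). Its levels were 11.4, 5.98, 9.46, 17.4, 19.4 and 7.61 CPM in tumors 1 to 6, with the same order of tumors as Sqle. Lrp8, a lipoprotein receptor, had 0.71 ± 0.62. The lysosomal genes Npc2, which hands cholesterol on, and Lipa, the acid lipase, had the lowest slopes over all 6 tumors, -0.44 ± 0.58 and -0.31 ± 0.44. Without tumor 1 their slopes were -0.01 ± 0.26 and -0.25 ± 0.38, and other genes of the list were lower than both.

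Over the 35 sterol genes other than the members, 34 were fitted, 18 slopes were positive and their median was 0.02, near that of all genes (19 positive and 0.16 without tumor 1). In the neighbouring fatty acid list, driven mainly by the related factor SREBP1, 4 of 10 slopes were positive, with a median of -0.09 (5 positive and 0.02 without tumor 1). Srebf1 itself had 0.57 ± 0.66, or 0.37 ± 0.56 without tumor 1, and the desaturase Scd2 0.43 ± 0.35, while Thrsp, a lipogenic regulator, had -1.07 ± 0.61 and the desaturase Scd1 -0.40 ± 0.40. Of 7 genes for efflux, storage and LXR, the sterol-sensing nuclear receptor, 4 had positive slopes and the median was 0.23 (4 positive and 0.05 without tumor 1). Soat1, which esterifies cholesterol for storage, had 0.63 ± 0.36 and the transporter Abca7 0.49 ± 0.54, while the lipoprotein gene Apoe had -0.51 ± 0.96. Apoe was at 358 CPM in tumor 3 and at 40.2 to 105 CPM in the others. With the identifier prefix as a covariate, the slope of Apoe was 0.10 ± 0.91. Nr1h3, which encodes LXR alpha, had -1.29 ± 0.45 (unadjusted edgeR p 0.0182, adjusted p 0.954), with 10.7, 9.56, 9.94, 4.68, 3.79 and 9.57 CPM in tumors 1 to 6. Its levels were thus lowest in tumors 4 and 5, where Hmgcs1 and Sqle were highest.

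**Figure D3:**
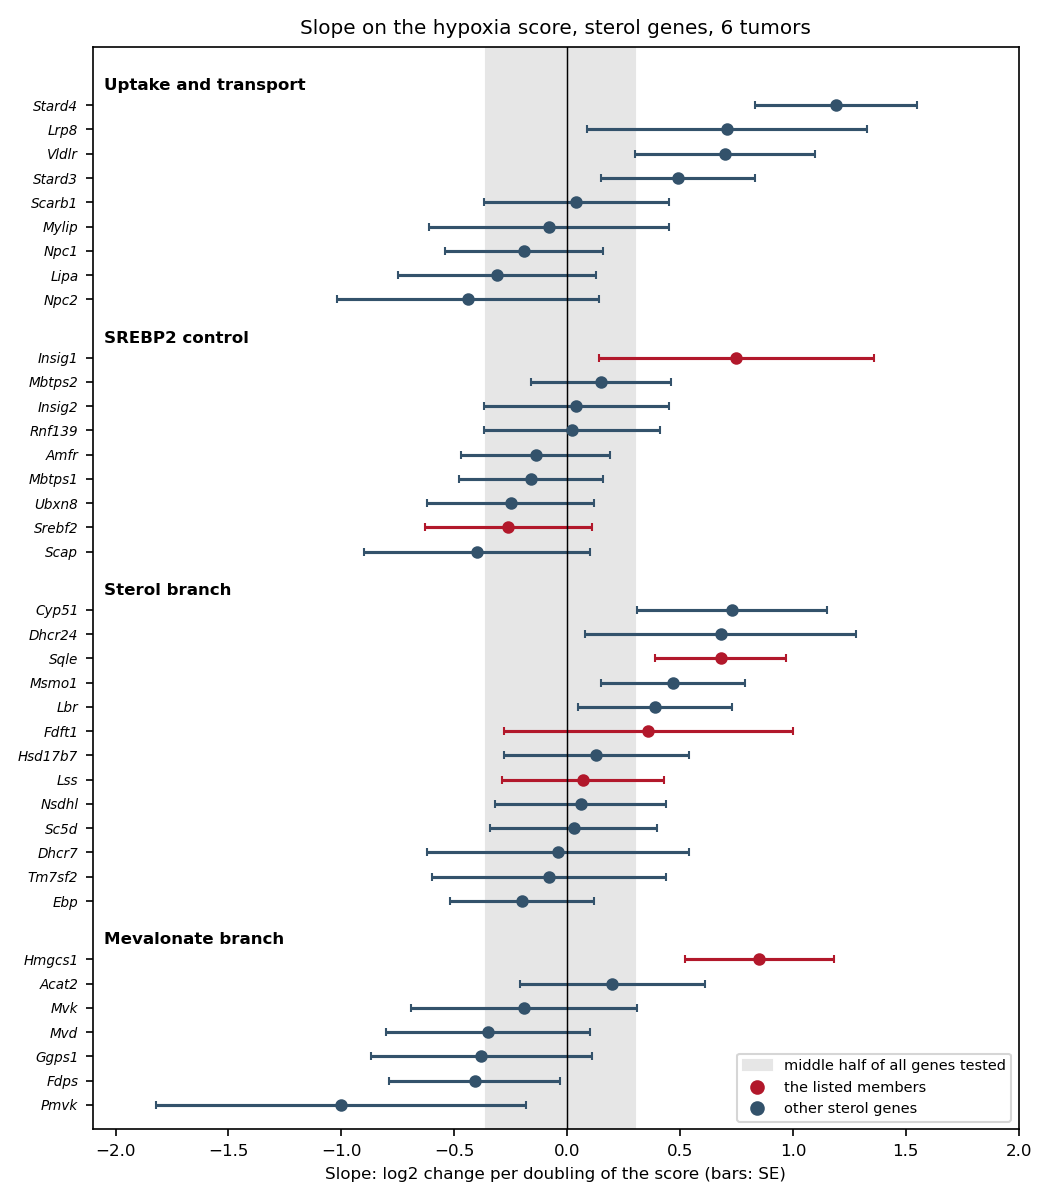
Slope on the hypoxia score (x axis, log2 change per doubling of the score; points, with lines of 1 SE) for sterol genes fitted, in 4 lists by role, members in red and other genes in blue, with the middle 50% of all genes as a grey band from -0.36 to 0.30. Stard4, Hmgcs1 and Sqle lie to the right of the band with their whole lines, and the line of Cyp51 ends near the right edge of the band. No slope passed the adjusted threshold, and Srebf2 lies inside the band.

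Whether the targets followed the mRNA of their regulator was examined by correlating Srebf2 with each gene over the 6 tumors, on log2(TMM-scaled CPM + 1), with two-sided exact permutation tests over the 720 orders of the tumors (smallest possible p 0.00139) and Benjamini-Hochberg adjustment over the 12087 genes. With so few orders, a gene can pass this adjustment only if very many genes do, so the adjusted p cannot decide the question. No member passed these tests. Hmgcs1 had a Pearson's r of -0.29 (exact permutation p 0.489, adjusted p 0.66) and a Spearman's rho of -0.54 (exact permutation p 0.297, adjusted p 0.871). Sqle had an r of -0.12 (exact permutation p 0.761, adjusted p 0.858) and a rho of -0.37 (exact permutation p 0.497, adjusted p 0.92).

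Insig1 had an r of 0.05 (exact permutation p 0.99, adjusted p 0.995) and a rho of -0.71 (exact permutation p 0.136, adjusted p 0.78). Fdft1 had an r of 0.66 (exact permutation p 0.16, adjusted p 0.353) and a rho of -0.03 (exact permutation p 1, adjusted p 1). On these TMM-scaled levels, the Pearson values of both turned negative without tumor 1, where Srebf2 was high. Lss had an r of -0.54 (exact permutation p 0.261, adjusted p 0.464) and a rho of -0.77 (exact permutation p 0.103, adjusted p 0.747).

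Positive correlations with an exact p under 0.05 made up 8.08% of all genes, and 0 of the 5 members were among them. No gene passed the adjustment, with a smallest adjusted p of 0.286 by the exact permutation test. On the TMM-scaled log2 levels, the positive values rest on tumor 1. On that scale, though not in plain CPM, tumors 1 and 3 were the 2 farthest from the median of Srebf2. Without them, r was -0.82 for Hmgcs1, -0.97 for Sqle, -0.88 for Insig1, -0.90 for Fdft1 and -0.17 for Lss. Without tumor 1 alone, r was -0.55, -0.74, -0.89, -0.81 and -0.48 for the same genes. In plain CPM, Srebf2 varied only from 46.9 to 50.6 in those 5 tumors, with overlapping counting intervals, a range no wider than counting error. The r values are on TMM-scaled levels, with factors from 0.91 in tumor 6 to 1.06 in tumor 3. Such factors can reorder levels this close, so the size and sign of r can depend on the scaling. The r without tumor 1 in plain CPM was not computed. Within the 4 tumors of 1 identifier prefix, which include tumor 1, r was -0.74, -0.33, 0.13, 0.68 and -0.67 for these genes in the same order, and the other prefix has only 2 tumors.

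Among the partners of SREBP2, r with Srebf2 was 0.92 for Scap (exact permutation p 0.132), 0.90 for Mbtps1 (exact permutation p 0.0528) and 0.79 for Insig2 (exact permutation p 0.0875), with adjusted p of 0.351, 0.334 and 0.351. All 3 genes were highest in tumor 1, and without it r was -0.50, 0.29 and -0.06. Mbtps2 had an r of -0.52 (exact permutation p 0.267), and Srebf1, the sister gene of Srebf2, an r of -0.58 (exact permutation p 0.149).

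How alike the members were among themselves is given as a description, over 6 tumors that share libraries and depth. Of the 21 pairs of members, 16 had a positive r, with a median of 0.41 and a range from -0.54 to 0.86. Without tumor 1, 13 pairs were positive, with a median of 0.24 and a range from -0.89 to 0.88. Hmgcs1 and Sqle were the most alike pair, at 0.86, and 0.88 without tumor 1. Against the mean standardised profile of the other members, r was 0.84 for Sqle, 0.65 for Insig1, 0.61 for Hmgcs1, 0.61 for Idi1, 0.61 for Fdft1, 0.04 for Srebf2 and -0.17 for Lss. Without tumor 1 it was 0.98 for Sqle, 0.55 for Insig1, 0.89 for Hmgcs1, 0.61 for Idi1, 0.53 for Fdft1, -0.82 for Srebf2 and -0.02 for Lss. Srebf2 and Lss thus did not share the pattern of the other members on these levels, which are TMM-scaled too.

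For this, each member's profile was centred and scaled to unit length over the tumors, which gives smaller values than SD units. The mean profile of all members on that scale was 0.23, -0.42, -0.04, 0.22, 0.22 and -0.22 in tumors 1 to 6. Over the 30 other sterol genes averaging 10 CPM or more, 4 (13.3%) had an r of at least 0.8 with it and the median r was 0.40, beside 2.03% and a median of 0.02 over 8869 genes. Among them were Cyp51 at 0.97, Stard4 at 0.88 and Lbr, a sterol reductase of the nuclear envelope, at 0.81. The lowest of the 30 was Ggps1, which leads isoprenoids away from sterols, at -0.69. In the fatty acid list, 0 of 10 genes reached 0.8, with a median of 0.27. Without tumor 1 the sterol genes at 0.8 or more numbered 7 of 30 (23.3%), beside 5.32% of all genes, while their median r was 0.25.

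Of all genes outside the members, the 5 most like the mean profile over the 6 tumors were Ctnnb1, which encodes beta-catenin, at 0.99, Cyp51 at 0.97, Ddit4, a stress-induced inhibitor of mTORC1, at 0.96, Tcp1, a chaperonin subunit, at 0.95, and Perp, a desmosome component, at 0.95. Ctnnb1 was at 1159, 767, 994, 1125, 1184 and 770 CPM in tumors 1 to 6. It was low in tumors 2 and 6, as were Insig1, Sqle and Fdft1.

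**Figure D4:**
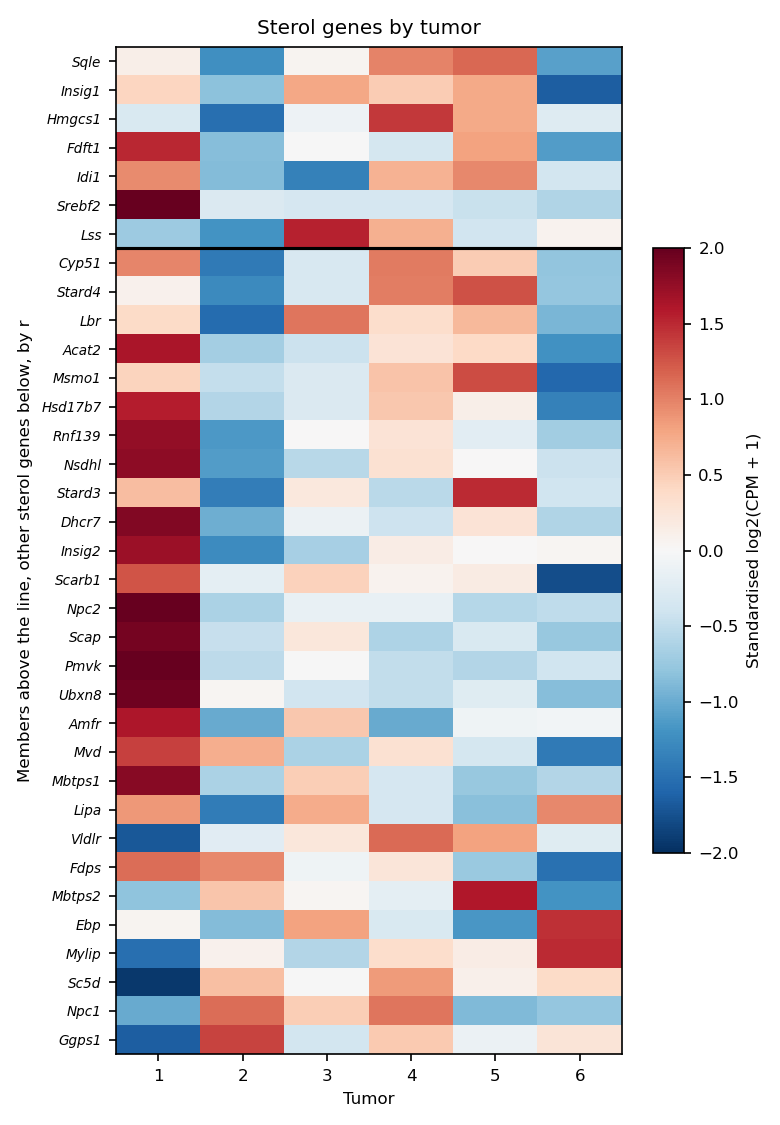
Standardised log2(CPM + 1) of the 7 members (above the line) and other sterol genes averaging 10 CPM or more (below it, both ordered by r with the members' mean profile) in tumors 1 to 6, from low (blue) to high (red) within each gene. Sqle, Cyp51 and Stard4 are low in tumors 2 and 6 and high in tumors 4 and 5, and Srebf2 and Scap are high in tumor 1.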

How the data were processed

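Libraries of sorted epithelial cells from 6 B20-4.1.1-treated tumors were made with a 3′ kit that carries molecular identifiers. Per the submitters' processing notes, STAR 2.5, HTSeq and the build GRCm38 (mm10) were used, and the authors deposited raw counts per gene without normalization. The annotation release, the strand setting and any collapsing by identifier are not given in the sources used here. Lines naming no gene held 16.1 to 41.4% of reads and were left out. The median depth was 4854788 counts on genes. The labels give 1 tumor per sample, p-values measure the spread between these 6 samples, and mouse identifiers carried 2 prefixes. Of the identifiers, 47224 matched a GENCODE M21 (GRCm38) symbol and 419 did not.

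Levels were computed as CPM, and the score in TPM with union exon lengths for the score, although 3′ counts depend little on length. Genes were filtered with filterByExpr (minimum count 10, minimum total 15, group of 3), scaled by TMM (factors 0.91 to 1.06), and fitted with edgeR's quasi-likelihood test against log2 of the score, with Benjamini-Hochberg adjustment over all genes fitted and a threshold of 0.05. Simulated data, in which 200 of 11765 genes were given a slope of 2, served to check the fit, which called 42.5% of those genes and made 91 calls, 6.59% of them false, so smaller slopes can be missed. Correlations with Srebf2 used a pseudocount of 1. Single high or low tumors were sought by Dixon's criterion (the gap to the nearest tumor over the whole range, 95% limit).

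The members and gene lists were chosen with earlier results of these data known. Named were the members, chosen regulators and targets, the score genes and Epcam, the 2 highest and 2 lowest slopes of each list, and the 5 genes most like the mean profile. Some genes of the lists are counted but not reported here by name, and are left out of the figures. Lbr, Ggps1 and Ctsb were named after their values were seen, and so was Malat1. Alternatives were DESeq2, its size factors, no filter, other forms of the score, the identifier prefix as a covariate and, added after seeing the data, the 4 tumors of 1 prefix alone, omission of the 10 most abundant genes, other scalings, levels and pseudocounts, and each tumor left out. Models were fitted in edgeR 4.0.16 or DESeq2 1.42.0, both under R 4.3.3. Tables, exact tests and figures were made in Python 3.11.15 (scipy 1.17.1, pandas 2.3.3, numpy 2.4.6, matplotlib 3.10.9).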

Additional observations from a re-analysis of the deposited data

Results flagged for a closer look

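Srebf2 in tumor 1 was set apart by a single sample far from the others. Its 89.9 CPM lay above the next tumor, at 50.6 CPM, by 0.913 of the range of the 6 tumors, which is above Dixon's 95% limit. Such a limit is passed by chance in a small share of groups, and in these libraries any tumor was highest and past it for 16.1% of the 8873 genes averaging 10 CPM or more. Among the 7 members, Srebf2 was the gene past the limit.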

How the results depend on the processing

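No member had an adjusted p under 0.05 against the score or Srebf2 under any alternative run. For Srebf2 this does not speak for stability. The exact tests have few orders of the tumors, fewer still with tumors left out, so a pass was hardly possible. The number of genes called against the score was 0 in edgeR, 18 with DESeq2, 10 without the filter on low counts, and 0 to 2 with each tumor left out (2 without tumor 1). The cause was not tested. The slopes of Hmgcs1 and Sqle lay between 0.66 and 1.28 and between 0.64 and 0.81 with each tumor left out, and were 0.59 and 0.47 with the score as a geometric mean. The slope of Fdft1 ran from 0.01 to 0.83 with each tumor left out, and was -0.04 within the 4 tumors of 1 identifier prefix, a fit added after seeing the data. The slope of Lss ran from -0.13 to 0.41 with each tumor left out, and changed sign without tumors 2 and 4. The r with Srebf2 ran from -0.74 to 0.06 for Sqle, from -0.89 to 0.18 for Insig1 and from -0.81 to 0.87 for Fdft1 with each tumor left out, and for Sqle it was 0.08 in CPM without TMM. The median level of Lss was 23.7 CPM without the 10 most abundant genes. Other sterol genes with an r of at least 0.8 numbered 7 in CPM without TMM, 0 at a mean of at least 50 CPM, and 4 to 7 with each tumor left out (7 without tumor 1). Members at that r numbered 1, 0 with the mean profile built without Idi1, a choice made after seeing the data, and 1 to 2 with each tumor left out, 2 without tumor 1, 3, 4 or 6. No paired analysis was possible because the labels give 1 group. Depth limits Idi1, Insig1 and Fdft1 most, with 23, 95 and 167 counts in all.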
